A study of Homo sapiens with 20 samples.

Results

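The genes described here are 10 components of the switch by which a cell commits to DNA replication in G1 phase: the cyclin genes CCND1, CCND3, CCNE1 and CCNE2, the kinase genes CDK2, CDK4 and CDK6, the retinoblastoma gene RB1, and the transcription factor genes E2F1 and E2F2. They were chosen by name as G1 cyclins, their kinases, RB and E2Fs, with earlier results of these data known. A probe set was used for a gene only where its annotation named that gene alone. The array measured 11963 genes with such a probe set, so the 10 genes are a small part of it, and 16 probe sets covered them. Each gene is represented by its brightest probe set, that of highest mean across the arrays, and the other probe sets are given beside it.

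Cells were SUM44, an established human breast cancer line derived from invasive lobular carcinoma. All groups had spent 3 days without hormone, in charcoal-stripped serum. Each of the 5 groups had 4 arrays, called A to D in the labels: a baseline at 0 h, ethanol vehicle (0.01%) for 3 h or 24 h, and 1 nM estradiol (E2), the main estrogen, for 3 h or 24 h. The replicates are biological quadruplicates by the series text and come from a single line, so the p-values measure the spread between its cultures. The serum is given as 2% in the series text and as 10% in the sample text. The treatment field of the 4 arrays titled 24 h E2 reads baseline, whereas their titles and descriptions name estradiol, and they were grouped by title.

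D-type cyclins bind CDK4 or CDK6 and start the phosphorylation of the RB protein, which holds E2F transcription factors in check. Cyclin E with CDK2 completes that phosphorylation, and the released E2Fs switch on genes for DNA synthesis, among them further cyclin and E2F genes. In estrogen-dependent breast cancer cells, CCND1 is a well-known estrogen-induced gene, and the CDK4 and CDK6 kinases are the targets of drugs given with endocrine therapy.

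Values are log2 expression per probe set, so a difference of 1 unit is a doubling of signal, and no level is compared between probe sets. A probe set name ending in _s_at marks probes that can match more than 1 transcript, which is the case for the only CDK4 probe set and for the brightest one of CCND1. The arrays correlated at 0.9978 to 0.9991 within groups and at 0.9882 to 0.9982 between groups, and the number of arrays limits the precision. A gene is called dim here where its mean is under 6.11, the 25th percentile of all genes, and all 7 luminal markers examined were brighter than that. Of 3 basal genes measured, the keratins KRT5 and KRT14 were dim and EGFR, at 6.55, was not. Among stromal markers 5 of 7, and among immune and endothelial markers 4 of 6, were dim too. The calls for estradiol against vehicle among these markers were 2 higher and 3 lower of 7 luminal, 0 of 3 basal, 0 of 7 stromal and 1 lower of 6 immune and endothelial genes at 3 h, when 31.1% of all genes passed the adjusted p threshold of 0.05. At 24 h they were 3 higher and 4 lower luminal, 2 higher basal, 2 higher and 1 lower stromal, and 1 lower immune and endothelial gene, when 45.7% of all genes passed. The part of these genes in the other results was not tested.

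After 3 h of estradiol, CCND1 rose far more than any other gene of the set, and CCNE1, CCNE2 and CDK2 rose slightly while CDK4 and CDK6 fell. The CCNE2 call was narrow, with overlapping arrays, and was lost in several alternative fits. A gene is said to have risen or fallen where its Benjamini-Hochberg adjusted p in the limma fit over all 11963 genes was under 0.05. By that rule 4 of the 10 genes were higher and 2 lower than vehicle at 3 h, beside 31.1% of all genes called in either direction, 13.5% higher and 17.6% lower. After 24 h, 7 were higher and 1 was lower, beside 45.7% of all genes called, 21.5% higher and 24.2% lower. Over all genes the 24 h calls were 2572 higher and 2897 lower, but 3042 higher and 2583 lower with arrays centred on their median. For the change between the times they were 1973 upward and 2127 downward, but 2130 and 2033 with that centring. The median difference of the 10 genes was 0.08 at 3 h and 0.26 at 24 h, beside 0.0002 and 0.02 over all genes. The arrays of the compared groups did not overlap for 5 of the 10 genes at 3 h, beside 30.6% of all genes, and for 8 at 24 h, beside 41.4%. With a change of at least 1.5-fold asked for as well, CCND1 alone was called at 3 h, beside 5.31% of all genes. CCND1, CCNE2 and CDK2 were called at 24 h by that rule, beside 6.34%. In cultured cells measured in bulk, more cells in a phase of the cycle and more RNA per cell cannot be told apart.

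**Figure D1:**
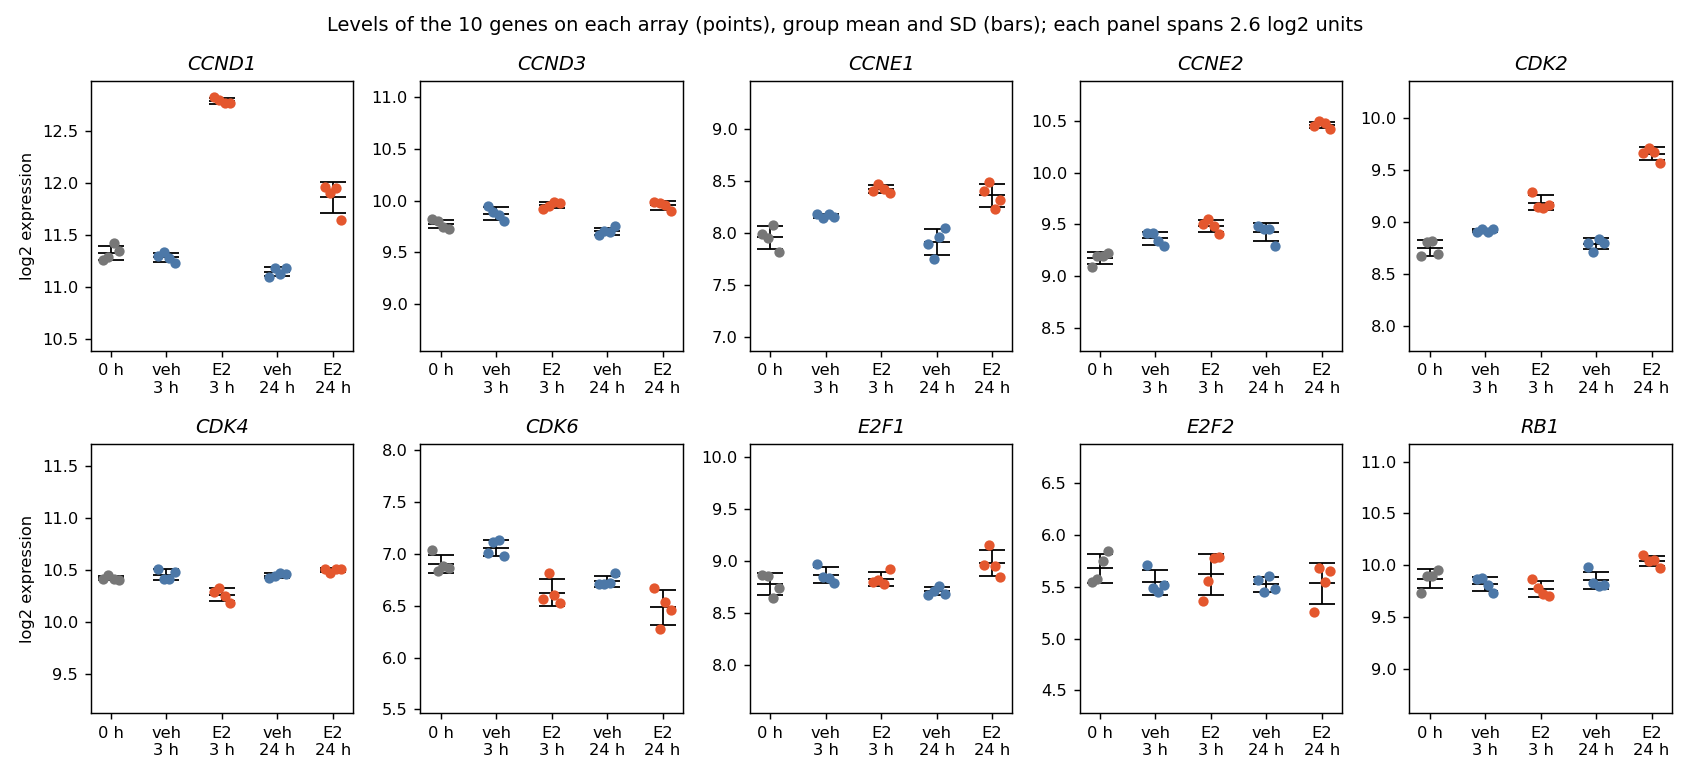
Log2 expression of the 10 genes on each of the 20 arrays; points are arrays A to D of a group, bars the group mean and SD (n = 4), and each panel spans the same range of log2 units. CCND1 stands highest after 3 h of estradiol, while CCNE2 and CDK2 stand highest after 24 h, where CCNE2 reached a mean of 10.46 against 9.42 in vehicle.

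Of the D-type cyclins, CCND1 encodes cyclin D1, and its probe set 208711_s_at read 12.83, 12.80, 12.77 and 12.78 on the estradiol arrays A to D at 3 h. Their vehicle counterparts read 11.29, 11.34, 11.28 and 11.23. Every estradiol array lay more than a log2 unit above every vehicle array. The difference was 1.51 ± 0.05 (SE, n = 4 per group), which is 2.84-fold (limma, adjusted p = 2.5e-14), and 99.1% of all genes had a smaller absolute difference.

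After 24 h CCND1 read on the estradiol arrays 11.96, 11.90, 11.95 and 11.64, and the vehicle arrays read 11.10, 11.19, 11.12 and 11.18. The groups again did not overlap, although array D lay below the other estradiol arrays. CCND1 was 0.72 ± 0.05 higher at 24 h, which is 1.64-fold (limma, adjusted p = 1.7e-09). The effect at 24 h minus that at 3 h was -0.79 ± 0.08 (limma, adjusted p = 1.2e-07), so the induction had become smaller. The other CCND1 probe set, 208712_at, rose by 1.72 ± 0.04 at 3 h, which is 3.30-fold, and by 0.86 ± 0.04 at 24 h. On that probe set array D at 24 h read 11.82, within the 11.77 to 11.82 of its group. In order of mean level the groups ran from vehicle at 24 h (11.15 ± 0.05, SD) over vehicle at 3 h (11.29 ± 0.04) and baseline (11.33 ± 0.07) to estradiol at 24 h (11.86 ± 0.15) and estradiol at 3 h (12.79 ± 0.03). Of these neighbours, the arrays of vehicle at 3 h and baseline overlapped.

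CCND3 encodes cyclin D3, which pairs with the same kinases. Its estradiol arrays at 3 h read 9.92, 9.94, 9.99 and 9.97, and the vehicle arrays read 9.95, 9.89, 9.86 and 9.80. The groups overlapped through vehicle array A. The difference of 0.08 ± 0.03 did not pass (limma, adjusted p = 0.071), and it did pass when each array was centred on its median (adjusted p = 0.019) or when vehicle array A was left out (adjusted p = 0.021). At 24 h its readings under estradiol were 9.99, 9.98, 9.96 and 9.90, all above the vehicle arrays at 9.67, 9.70, 9.70 and 9.75. CCND3 was then 0.25 ± 0.03 higher, or 1.19-fold (limma, adjusted p = 3.7e-06), and the difference between the times was 0.17 ± 0.05 (adjusted p = 0.0088). The mean under estradiol was 9.96 ± 0.03 at 3 h and 9.95 ± 0.04 at 24 h (SD), whereas vehicle stood at 9.87 ± 0.06 at 3 h and at 9.70 ± 0.04 at 24 h. The later difference therefore came with a lower vehicle level and with an estradiol level that moved by less than the SD.

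Of the E-type cyclins, CCNE1 encodes cyclin E1, a partner of CDK2. CCNE1 read 8.41, 8.48, 8.43 and 8.39 on the estradiol arrays at 3 h and 8.18, 8.15, 8.19 and 8.15 on the vehicle arrays. All estradiol arrays lay higher, by 0.26 ± 0.06 in the mean, or 1.20-fold (limma, adjusted p = 0.0024). By 24 h the estradiol arrays read 8.40, 8.49, 8.24 and 8.32 against 7.89, 7.75, 7.97 and 8.05 in vehicle. The groups did not overlap and both spread more widely than at 3 h. The difference was 0.45 ± 0.06, or 1.36-fold (limma, adjusted p = 5.1e-06). The change between the times, 0.19 ± 0.09, did not pass (limma, adjusted p = 0.10). It passed without vehicle array D at 24 h (adjusted p = 0.039) or without estradiol array C at 24 h (adjusted p = 0.045).

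CCNE2 encodes cyclin E2, the other CDK2 partner. At 3 h its estradiol arrays read 9.50, 9.55, 9.49 and 9.41 and its vehicle arrays 9.41, 9.42, 9.34 and 9.29. The groups overlapped narrowly, since estradiol array D lay under vehicle arrays A and B. The difference of 0.12 ± 0.04 passed narrowly (limma, adjusted p = 0.045) and did not pass without vehicle array C (adjusted p = 0.10), vehicle array D (0.15), or estradiol array A (0.092), B (0.14) or C (0.078). In a fit over all 19064 probe sets with 1 symbol, neither CCNE2 probe set passed at 3 h, beside 29.4% of those probe sets.

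At 24 h CCNE2 read 10.45, 10.49, 10.47 and 10.43 under estradiol, against 9.49, 9.45, 9.45 and 9.30 under vehicle. Every estradiol array stood well above every other array of the study, and the 4 vehicle arrays overlapped with those of both 3 h groups. CCNE2 was 1.04 ± 0.04 higher, or 2.05-fold (limma, adjusted p = 2.1e-13). Its effect grew between the times by 0.92 ± 0.06 (limma, adjusted p = 5.7e-10). The other CCNE2 probe set, 211814_s_at, was 1.07 ± 0.07 higher at 24 h and differed by 0.05 ± 0.07 at 3 h. CCNE2 and CCND1 thus had their larger estradiol effect at opposite times, each on both of its probe sets.

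The kinases did not move together. CDK2 encodes the kinase that cyclin E activates, and it read 9.29, 9.15, 9.14 and 9.16 under estradiol at 3 h and 8.90, 8.93, 8.91 and 8.93 under vehicle. Estradiol array A stood apart upward, and all 4 estradiol arrays were above the vehicle arrays. The difference was 0.27 ± 0.04, or 1.20-fold (limma, adjusted p = 4.3e-05). At 24 h CDK2 read 9.67, 9.72, 9.67 and 9.57 under estradiol and 8.80, 8.72, 8.84 and 8.80 under vehicle. The gap between the groups was many times the spread within them. The difference of 0.87 ± 0.04, or 1.83-fold (limma, adjusted p = 2.2e-12), exceeded that at 3 h by 0.60 ± 0.06 (adjusted p = 1.6e-07). A second bright probe set, 211804_s_at, rose by 0.19 ± 0.05 at 3 h and by 0.81 ± 0.05 at 24 h. The CDK2 probe set 211803_at was dim, between 3.76 and 4.19 on all arrays, and passed in neither comparison.

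CDK4 and CDK6 encode the kinases of the D-type cyclins, and both fell at 3 h. CDK4 read 10.29, 10.33, 10.25 and 10.18 under estradiol and 10.51, 10.41, 10.42 and 10.48 under vehicle. All estradiol arrays were lower, and the mean fell by 0.19 ± 0.03, which is 1.14-fold (limma, adjusted p = 5.9e-05). CDK4 at 24 h read 10.51, 10.48, 10.52 and 10.51 under estradiol and, under vehicle, 10.42, 10.44, 10.47 and 10.46. The estradiol arrays lay just above the vehicle arrays, with a difference of 0.06 ± 0.03 that did not pass (limma, adjusted p = 0.16). It passed with arrays centred on their median (0.08, adjusted p = 0.029). The change between the times, 0.25 ± 0.04, did pass (limma, adjusted p = 1.8e-04). CDK4 under estradiol at 3 h was the lowest of its 5 groups, and the arrays of the other 4 groups overlapped from each to the next.

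CDK6 read 6.56, 6.82, 6.60 and 6.53 under estradiol at 3 h, against 7.01, 7.11, 7.14 and 6.98 under vehicle. All estradiol arrays were below the vehicle arrays, by 0.43 ± 0.07 in the mean, or 1.35-fold lower (limma, adjusted p = 9.0e-05). CDK6 at 24 h read 6.67, 6.27, 6.53 and 6.46 under estradiol and, under vehicle, 6.71, 6.71, 6.72 and 6.82. The groups did not overlap, but the highest estradiol array came close to vehicle. CDK6 was 1.19-fold lower, a fall of 0.25 ± 0.07 (limma, adjusted p = 0.0082), and the change between the times, 0.18 ± 0.10, did not pass (adjusted p = 0.21) except without estradiol array B at 24 h (0.25, adjusted p = 0.046). CDK6 lay above the dim level of 6.11 on every array. The stromal marker PDGFRB (mean 6.58) and the endothelial marker VWF (6.47) also lay above that level, although most such markers were dim. Passing it therefore does not show a signal over background. CDK6 was the 1 gene of the set that was lower with estradiol at both times.

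**Figure D2:**
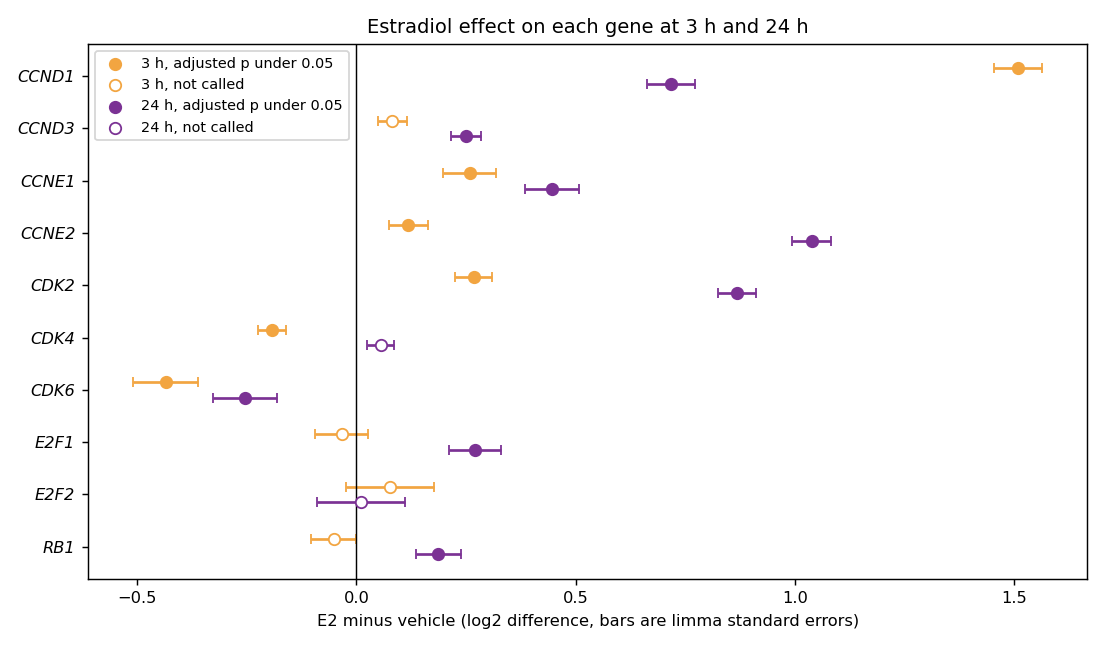
Estradiol minus vehicle (log2) for each of the 10 genes at 3 h (orange) and 24 h (purple), with limma standard errors as bars; filled points have an adjusted p under 0.05. CCND1 has the largest difference at 3 h (1.51), CCNE2 the largest at 24 h (1.04), and CDK6 lies below 0 at both times.

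RB1 encodes the pocket protein that binds and restrains E2Fs. At 3 h it read 9.87, 9.78, 9.72 and 9.71 under estradiol and 9.87, 9.88, 9.81 and 9.73 under vehicle. The groups overlapped, and the difference of -0.05 ± 0.05 did not pass (limma, adjusted p = 0.53). At 24 h RB1 read 10.10, 10.05, 10.05 and 9.98 under estradiol and 9.98, 9.83, 9.80 and 9.81 under vehicle. Vehicle array A lay as high as the lowest estradiol array, and the other 3 vehicle arrays were below. The rise of 0.19 ± 0.05, or 1.14-fold (limma, adjusted p = 0.0056), came with a change between the times of 0.24 ± 0.07 (adjusted p = 0.015). The other RB1 probe set, 211540_s_at, had group means between 6.16 and 6.39 and passed at neither time, with differences of 0.03 ± 0.10 and 0.23 ± 0.10.

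E2F1 encodes an activating E2F that RB binds. At 3 h it read 8.80, 8.81, 8.78 and 8.92 under estradiol and 8.97, 8.85, 8.84 and 8.79 under vehicle. The groups overlapped fully, with a difference of -0.03 ± 0.06 (limma, adjusted p = 0.74). At 24 h the estradiol arrays read 8.96, 9.15, 8.95 and 8.85, all above the vehicle arrays at 8.68, 8.71, 8.76 and 8.69. E2F1 was 0.27 ± 0.06 higher, or 1.21-fold (limma, adjusted p = 9.0e-04), and the change between the times was 0.30 ± 0.08 (adjusted p = 0.0078). The other probe set, 2028_s_at, differed by 0.11 ± 0.06 at 3 h without passing and rose by 0.35 ± 0.06 at 24 h, when 41.6% of all probe sets passed.

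E2F2, a close relative of E2F1, was dim, with group means between 5.52 and 5.68 and single arrays between 5.25 and 5.84. Its 5 groups overlapped throughout. The differences were 0.08 ± 0.10 at 3 h and 0.01 ± 0.10 at 24 h (limma, adjusted p = 0.64 and 0.95). With standard errors of 0.10, a small change in E2F2 could be missed here. Low signals can also compress a change, which was not tested.

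**Figure D3:**
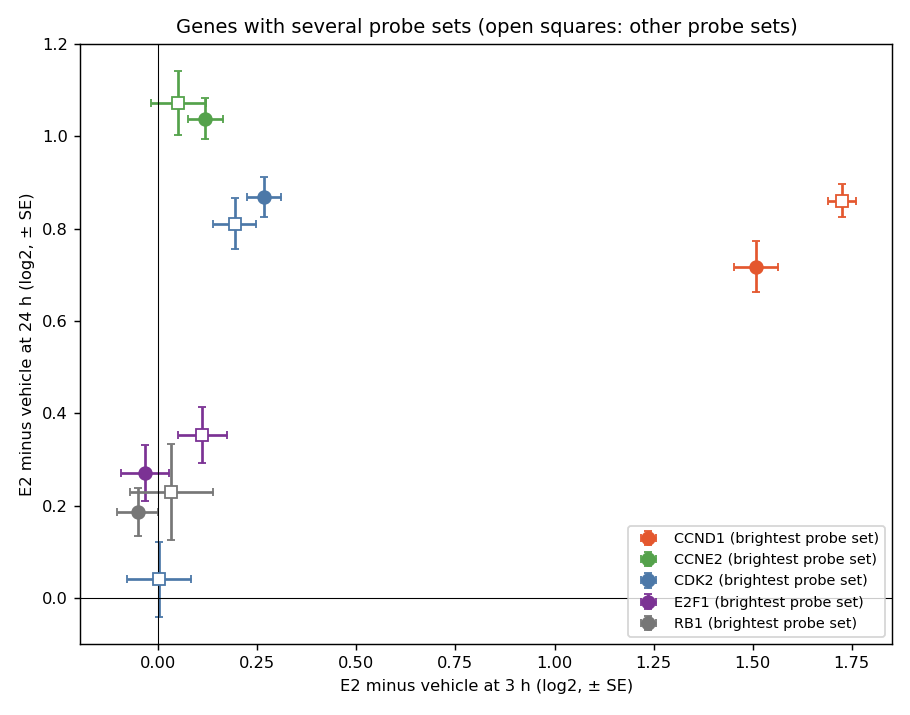
Estradiol minus vehicle at 3 h (x axis) against the same at 24 h (y axis), both log2 with limma standard errors, for the 5 genes with several probe sets; circles are the brightest probe set of a gene and open squares its other probe sets. Both CCND1 probe sets lie to the right (1.51 and 1.72 at 3 h), the CCNE2 and bright CDK2 probe sets lie at the upper left, and the dim CDK2 probe set lies near 0.

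RefSeq promoter windows (GRCh38.p14, 250 bases before to 50 after an annotated gene start) were held for 7 of the 10 genes, in 10 windows. No window was held for CCND1, CCNE2 or CDK2, so their promoters were not searched. The 10 windows were searched on both strands for an E2F consensus, spelled TTTCCCGC, TTTCGCGC, TTTGCCGC or TTTGGCGC, since E2F genes are known to be targets of E2Fs. It was found in 2 of the 10 windows, those of E2F1 and E2F2, and in 1164 of all 35116 windows (3.31%). Among 35 genes known as E2F targets, 23 of 52 windows held it (44.2%). Both windows with a match are shown because E2F1 rose at 24 h while E2F2 stayed dim. Each is printed along its gene, which lies on the minus strand, and the capitals mark the E2F consensus.
E2F1, chr20:33686336-33686635: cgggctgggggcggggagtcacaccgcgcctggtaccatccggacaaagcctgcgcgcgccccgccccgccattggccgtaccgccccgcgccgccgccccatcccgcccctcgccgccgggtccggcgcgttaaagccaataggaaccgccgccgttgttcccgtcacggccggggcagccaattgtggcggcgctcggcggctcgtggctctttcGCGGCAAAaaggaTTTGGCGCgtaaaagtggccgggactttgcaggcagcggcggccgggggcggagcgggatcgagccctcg
E2F2, chr1:23531184-23531483: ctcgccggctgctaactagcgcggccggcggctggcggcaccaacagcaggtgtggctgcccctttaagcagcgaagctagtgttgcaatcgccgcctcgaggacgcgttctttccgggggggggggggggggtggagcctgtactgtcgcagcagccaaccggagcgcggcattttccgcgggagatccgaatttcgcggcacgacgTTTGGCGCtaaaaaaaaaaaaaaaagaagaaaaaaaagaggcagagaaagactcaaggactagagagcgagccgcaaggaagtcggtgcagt
The E2F1 window held 2 matches, from 33 to 26 bases before the start on the opposite strand (GCGGCAAA) and from 20 to 13 bases before it along the gene (TTTGGCGC), and they did not overlap. The E2F2 window held TTTGGCGC from 42 to 35 bases before the start. The full palindromic estrogen response element GGTCANNNTGACC was found in 0 of the 10 windows and in 20 of all windows (0.057%). The RB1 window was 38.3% GC, beside a median of 58.7% over all windows. Whether a window holds the main promoter of its gene was not examined. A match is a description of letters in this window, and no occupancy was measured.

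Some of these genes also differed between the vehicle and baseline arrays. The ACTB RNA quality value, 3′ end minus 5′ end, was 0.47 ± 0.01 (SD, log2) at baseline, whereas the vehicle arrays gave 0.31 ± 0.03 at 3 h and 0.40 ± 0.03 at 24 h, with no overlap between baseline and either. The GAPDH values, -0.12 in each of these groups, overlapped, and the part of RNA quality in these differences was not tested. In vehicle at 3 h against baseline, 4 of the 10 genes were higher and 0 lower, beside 9.95% of all genes higher and 10.1% lower. None of the 4 reached 1.5-fold, beside 1.02% of all genes. CCNE2 rose by 0.19 ± 0.04 (limma, adjusted p = 0.0034), CCNE1 by 0.21 ± 0.06 (adjusted p = 0.020) and CDK2 by 0.17 ± 0.04 (adjusted p = 0.0065). CCND3 was 0.10 ± 0.03 higher with overlapping arrays (limma, adjusted p = 0.042), a call lost without baseline array B, C or D or vehicle array A, B or C (adjusted p 0.054 to 0.15). The CCNE1 call was lost without baseline array D (adjusted p = 0.084). Baseline CCNE2 read 9.09, 9.19, 9.20 and 9.22, below all vehicle arrays of both times.

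In vehicle at 24 h against baseline, 1 of the 10 genes was higher and 1 lower, beside 7.55% of all genes higher and 4.37% lower. Neither reached 1.5-fold, beside 0.309% of all genes. CCNE2 was 0.25 ± 0.04 higher (limma, adjusted p = 7.2e-04). CCND1 fell by 0.18 ± 0.05 (limma, adjusted p = 0.036), a call lost without baseline array B, C or D or vehicle array A, B or C (adjusted p 0.051 to 0.11). Among all genes this comparison gave 903 higher and 523 lower calls, but 806 and 712 with arrays centred on their median and 839 and 743 after a further quantile normalization. Set directly against baseline, as a description, estradiol arrays at 24 h lay wholly above it for CCND1 (0.54), CCND3 (0.18), CCNE1 (0.40), CCNE2 (1.29), CDK2 (0.91), CDK4 (0.08) and RB1 (0.17), and wholly below it for CDK6 (-0.42). At 3 h they lay wholly above it for CCND1 (1.47), CCND3 (0.18), CCNE1 (0.47), CCNE2 (0.31) and CDK2 (0.44) and wholly below it for CDK4 (-0.16) and CDK6 (-0.28). E2F1 and E2F2 overlapped baseline at both times, and RB1 at 3 h.

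The effect of estradiol differed between 24 h and 3 h for 7 of the 10 genes, 6 in the upward direction (CCND3, CCNE2, CDK2, CDK4, E2F1 and RB1) and CCND1 in the downward direction, beside 34.3% of all genes called, 16.5% upward and 17.8% downward. CCND1, CCNE2 and CDK2 passed with a change of at least 1.5-fold, beside 6.41% of all genes. The median change between the times was 0.21 over the 10 genes and 0.02 over all genes.

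Genes further along the pathway were read from lists by role, also chosen with earlier results of these data known. Of 35 measured E2F target genes, many of which encode replication or nucleotide synthesis proteins, 6 rose, 6 fell and 23 did not pass at 3 h. The called share was near the 31.1% of all genes called, and the median difference was 0.03. At 24 h all 35 measured were higher and 0 lower, where 45.7% of all genes were called and 21.5% were higher. Their median was 0.76 beside 0.02 over all genes. Of the 35, 24 were called at least 1.5-fold higher, beside 361 of all 11963 genes. DTL, a substrate receptor of a replication-coupled ubiquitin ligase, rose by 0.58 ± 0.06 at 3 h and by 1.57 ± 0.06 at 24 h (limma, adjusted p = 3.2e-07 and 1.2e-13). MCM10, a replication initiation factor, rose by 0.35 ± 0.05 and 1.49 ± 0.05 at these times. CDC6, which loads the replicative helicase, rose by 0.50 ± 0.07 at 3 h and by 1.52 ± 0.07 at 24 h. The helicase subunit genes MCM5 and MCM6 rose by 1.15 ± 0.05 and 1.01 ± 0.03 at 24 h. UNG, a uracil-DNA glycosylase, fell by 0.69 ± 0.05 at 3 h (limma, adjusted p = 3.8e-10) and was 0.15 ± 0.05 higher at 24 h. An upward change in the effect from 3 h to 24 h passed for 34 of the 35, beside 34.3% of all genes called and 16.5% upward. For CDT1, another helicase-loading factor, the change did not pass (0.11 ± 0.11, limma, adjusted p = 0.46).

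Among 9 measured pocket protein, E2F and DP genes outside the set, 1 rose and 3 fell at 3 h, beside 31.1% of all genes called, and 5 rose and 2 fell at 24 h, beside 45.7%. E2F5, a repressive E2F, fell by 0.89 ± 0.05 at 3 h and by 0.61 ± 0.05 at 24 h (limma, adjusted p = 5.2e-11 and 1.2e-08). E2F8, an atypical repressive E2F, fell by 0.78 ± 0.06 at 3 h and rose by 0.58 ± 0.06 at 24 h, a change of 1.36 ± 0.09 between the times (limma, adjusted p = 3.1e-10). E2F6, another repressive member, rose by 0.38 ± 0.05 at 3 h, and the activator E2F3 fell by 0.16 ± 0.04 and then 0.37 ± 0.04. RBL1, which encodes the RB relative p107, was 0.87 ± 0.09 higher at 24 h (limma, adjusted p = 1.9e-07) and differed by 0.11 ± 0.09 at 3 h without passing.

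Of 6 measured CDK inhibitor genes, 1 rose and 2 fell at 3 h (31.1% of all genes called), and 2 rose and 2 fell at 24 h (45.7%). CDKN1B, which encodes p27, an inhibitor of cyclin E with CDK2, fell by 0.31 ± 0.03 at 3 h and by 0.35 ± 0.03 at 24 h (limma, adjusted p = 5.9e-07 and 8.5e-08). CDKN2D, an inhibitor of CDK4 and CDK6, rose by 0.56 ± 0.07 and 0.27 ± 0.07, while its relative CDKN2B, which was dim, fell by 0.24 ± 0.06 and 0.20 ± 0.06. CDKN1C, which encodes p57, was 0.36 ± 0.08 higher at 24 h.

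Of 14 genes for cyclin turnover and CDK phosphorylation, 3 rose and 6 fell at 3 h, against 31.1% of all genes called, and 6 rose and 3 fell at 24 h, against 45.7%. CDC25A, the phosphatase that activates CDK2, rose by 0.33 ± 0.06 at 3 h and by 0.70 ± 0.06 at 24 h (limma, adjusted p = 2.6e-04 and 1.2e-08). WEE1, the kinase that opposes it, fell by 0.38 ± 0.03 and 0.23 ± 0.03. SKP2, which marks p27 for degradation, fell by 0.31 ± 0.04 at 3 h and rose by 0.22 ± 0.04 at 24 h, and its cofactor gene CKS1B rose by 0.45 ± 0.03 at 24 h. FBXW7, which marks cyclin E for degradation, fell by 0.35 ± 0.05 at 3 h and by 0.16 ± 0.05 at 24 h. CKS2, a relative of CKS1B, rose by 0.25 ± 0.06 at 3 h, and AMBRA1, which marks D-type cyclins for degradation, by 0.14 ± 0.04. The scaffold gene CUL1 fell by 0.18 ± 0.03 at 3 h and by 0.10 ± 0.03 at 24 h, and PKMYT1, a kinase related to WEE1, rose by 0.35 ± 0.04 at 24 h.

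Of 11 other cyclin and CDK genes, 2 rose and 3 fell at 3 h, with 31.1% of all genes called, and 5 rose and 3 fell at 24 h, with 45.7%. MNAT1 and CDK7 encode parts of the kinase that activates other CDKs. MNAT1 fell by 0.36 ± 0.05 at 3 h and by 0.39 ± 0.05 at 24 h, and CDK7 fell by 0.48 ± 0.04 at 24 h (limma, adjusted p = 2.0e-09). CCNH, the cyclin of that kinase, fell by 0.15 ± 0.03 at 3 h. The mitotic kinase gene CDK1 rose by 0.16 ± 0.04 at 3 h and by 0.56 ± 0.04 at 24 h, CDK5 rose by 0.12 ± 0.04 at 3 h, and CCNA2, the S phase cyclin, rose by 0.37 ± 0.06 at 24 h. CCNC, the cyclin of the Mediator kinase, fell by 0.11 ± 0.03 at 24 h.

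**Figure D4:**
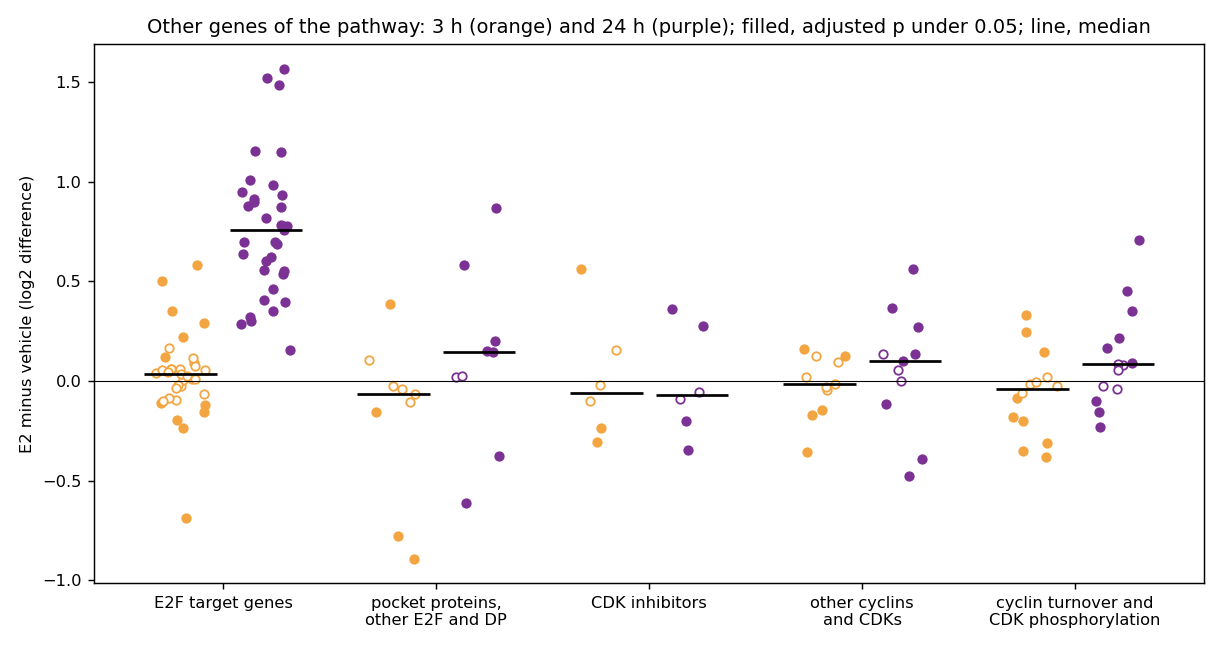
Estradiol minus vehicle (log2) for each measured gene of 5 pathway lists at 3 h (orange) and 24 h (purple); filled points have an adjusted p under 0.05 and lines are list medians. The E2F target genes spread around 0 at 3 h (median 0.03) and all lie above it at 24 h (median 0.76), while the other lists hold genes on both sides at both times.

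Genes of the most similar pattern were taken by Pearson correlation over the 20 arrays among 8971 genes that were not dim, as a description, since all points share the 5 groups. SPRY4, HSD11B2 and SYNPO2L were most like CCND1, each with r = 0.99. For CCNE2 they were CENPU (r = 0.991), H2AZ1 (0.986) and RPA3 (0.985). For E2F1, whose levels moved less, they were HAUS7 (0.818), AP2S1 (0.793) and NOL12 (0.788). For RB1 they were HEATR3 (0.907), IFT70A (0.893) and TTF2 (0.888).

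The RNA quality probe sets of ACTB, read at the 3′ end minus the 5′ end, differed between estradiol and vehicle at 3 h, with 0.38 ± 0.03 against 0.31 ± 0.03 (SD, log2) and arrays that did not overlap. For GAPDH the values were -0.14 ± 0.01 against -0.12 ± 0.01, also without overlap. At 24 h the ACTB values were 0.38 ± 0.01 and 0.40 ± 0.03 and the GAPDH values -0.15 ± 0.01 and -0.12 ± 0.03, with overlapping arrays for both. The part of RNA quality in the differences was not tested.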

How the data were processed

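SUM44 RNA was measured on 20 Affymetrix U133A 2.0 arrays. Per the submitters' processing notes, RMA and affy gave the deposited log2 values, 1 for each probe set on each array; versions and parameters are not given in the sources used here. RMA equalises array distributions, so a change in total RNA per cell would not appear.

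Of 22277 probe sets, 62 controls were left out; 19064 had 1 gene symbol, 1043 several and 2108 none. Entrez numbers matched RefSeq for 19052, with 0 symbols changed. The brightest probe set was kept for each of 11963 genes (4310 had several), with no filter on dim genes. A single limma fit (limma 3.58.1, R 4.3.3, two-sided) held all 20 arrays, with group means and no block. P-values were adjusted by Benjamini-Hochberg over all genes, with a threshold of 0.05; errors after ± are limma standard errors unless SD is named. The fit was tested on simulated data. Alternatives changed the arrays fitted, block, normalization, dim genes, probe set choice, variance prior, array weights, threshold and single arrays.

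The 10 genes and the pathway lists were chosen with earlier results of these data known. From each other list, the text names up to 4 genes per estradiol comparison by smallest p, and those against the list's majority where there are at most 3. Genes of like pattern are named for CCND1, CCNE2, E2F1 and RB1.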

Additional observations from a re-analysis of the deposited data

Results flagged for a closer look

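In 4 of the 50 sets of 4 arrays examined (10 genes in 5 groups), 1 array lay far from the other 3, where chance gives about 1 in 20. CDK2 array A of estradiol at 3 h read 9.29, and the nearest other array 9.16. CDK4 array B of estradiol at 24 h read 10.48, under the other 3 arrays at 10.51 to 10.52. CDK6 array D of vehicle at 24 h read 6.82, above the nearest at 6.72. RB1 array A of vehicle at 24 h read 9.98, above the nearest at 9.83. The calls for CDK2 at 3 h and for CDK6 and RB1 at 24 h kept their side of the threshold without these arrays, as did CDK4 at 24 h, which did not pass.

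The estradiol effect at 24 h minus that at 3 h was tested as an interaction in the limma fit. It passed for 7 of the 10 genes, beside 34.3% of all genes called, 16.5% upward and 17.8% downward. It was -0.79 for CCND1, 0.92 for CCNE2, 0.60 for CDK2, 0.30 for E2F1, 0.25 for CDK4, 0.24 for RB1 and 0.17 for CCND3.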

How the results depend on the processing

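Of the 10 genes, 0 called differences changed direction under any alternative run. With probe sets ending in _x_at or _s_at left out, 2377 genes were called at 3 h, 3410 at 24 h, 2463 for the change between times, 1463 for vehicle at 3 h and 808 for vehicle at 24 h, where 1 of the 9 members with a value passed; CDK4 has only a probe set of the kind left out, and fewer genes were tested. At a threshold of 0.01, 1573 genes and 2 members passed for vehicle at 3 h and 784 genes and 1 member for vehicle at 24 h. With at least 1.5-fold asked for, the counts were 635, 759, 767, 122 and 37 genes and 1, 3, 3, 0 and 0 members in the same order. With 1 array left out, members called ranged from 5 to 7 at 3 h, were 8 in each case at 24 h, and ranged from 7 to 8 for the change between times, from 2 to 4 for vehicle at 3 h and from 1 to 2 for vehicle at 24 h.

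CCNE2 at 3 h also lost its call with only the compared arrays fitted (adjusted p = 0.073), with the mean of its probe sets (0.24) and with the restricted probe sets (0.054). CCND3 at 3 h and CDK4 at 24 h passed under all 3 other normalizations (adjusted p up to 0.041 and 0.033), and CCND3 also with dim genes left out (0.049) or with array weights (0.045). The change between times for RB1 lost its call with the mean of its probe sets (0.051), and for CCNE1 it passed after a further quantile normalization (0.033). CDK2 in vehicle at 3 h lost its call with the mean of its probe sets (0.11). The causes were not tested, also where fewer genes or samples entered.

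The letters A to D were not taken as pairs in the main fit. Deviations of same-letter arrays correlated from -0.25 to 0.37 (median 0.0069), and those of other letters from -0.36 to 0.20 (median -0.00089). Of 20 arrays, 7 correlated best with their own letter. These values cannot show whether arrays of the same letter were handled together. With the letter as a replicate block, 3665 genes were called at 3 h and 5479 at 24 h, with 6 and 8 members, and 1 call among the members changed, CCND3 in vehicle at 3 h (adjusted p = 0.057). Signals near background limit what can be said of E2F2, and whether the CDK6 signal lay above background was not tested.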
